A study of Homo sapiens with 12 samples.

Results

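Transcript levels of 35 genes of the PI3K, AKT and mTOR pathway, out of 19447 gene symbols measured, were examined in imatinib-sensitive and imatinib-resistant leukemia cells with and without lycorine, an alkaloid from plants of the amaryllis family. The 35 genes were listed by name and are the class I lipid kinase subunits, the insulin receptor substrate adaptors, 5 phosphatases, AKT with its activating kinase and several of its targets, the subunits of both mTOR complexes, and the genes that control mTORC1 or act directly below it. Messenger RNA was enriched by its poly(A) tail and sequenced in 12 libraries, 3 for each of 4 groups. K562 is a human myeloid leukemia line that carries the BCR-ABL fusion kinase, the target of imatinib (IM). The group K562 was the untreated parental line, and K562+L was the same line with 6 µM lycorine. K562/IM was made from K562 by raising imatinib step by step and was kept in 5 µM of the drug, and the labels give it no lycorine. The K562/IM+L-labelled libraries are, by their labels, K562/IM with lycorine, for which the study's methods give 6 µM. As K562/IM, these cells would also have been kept in 5 µM imatinib. Whether imatinib was in the medium of either group at harvest is not stated in the sources used here. All 4 groups share the parental line and its fusion kinase. There was 1 resistant line, so that resistance, exposure to imatinib and any other difference between this line and its parent cannot be told apart. The time of exposure to lycorine before sequencing is not given in the sources used here.

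Class I PI3K converts the membrane lipid PIP2 into PIP3. Receptors and their adaptors bring the kinase to the membrane, PIP3 then recruits PDPK1 and AKT, and inositol phosphatases remove the lipid again. AKT phosphorylates GSK3B, the FOXO transcription factors and TSC2, which releases the small GTPase RHEB to activate mTORC1, the complex that drives protein synthesis through the S6 kinases and holds back autophagy. In chronic myeloid leukemia BCR-ABL feeds into this pathway. Its state is set mainly by phosphorylation, which RNA levels do not measure.

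The libraries held 75093844 to 107344598 counts, and replicate libraries of 1 group differed by far more than counting noise (chi-square per degree of freedom of 32.0 or more), so that none was a duplicate. Levels are given in CPM, the count of a gene scaled to the normalized size of its library. ABCB1, the drug efflux pump P-gp, was at 1.68 to 1.86 CPM in K562, 3.83 to 5.14 CPM in K562+L, 21.9 to 25.8 CPM in K562/IM and 0.490 to 1.06 CPM in the K562/IM+L-labelled libraries, the last below all 3 parental libraries. The summed level of 9 erythroid genes of K562, all of them present in every group, was 5700 to 7730, 3920 to 4450, 2760 to 3010 and 24400 to 32700 CPM in the same order. The study numbers the last group in more than 1 way, so it is named only by its label in what follows. Whether its ABCB1 and erythroid levels belong to the treatment or to the cells used cannot be told apart here. Lists for T cells, B cells, monocytes and fibroblasts summed to at most 3.05 CPM outside K562/IM. In K562/IM they reached 22.0 to 23.6 CPM for T cells, nearly all of it CD3D with CD3E at 0.125 CPM or less, and 19.8 to 24.9 CPM for fibroblasts, led by COL1A2. EPCAM was at 46.3 to 128 CPM on average in every group. A second feature of the libraries was gene length. The median log2 level of long genes (transcripts of at least 4931 bases) relative to short genes (at most 2007 bases) ran from -0.42 to 0.07 in K562, 0.11 to 0.36 in K562+L, 0.23 to 0.31 in K562/IM and -0.50 to -0.003 in the K562/IM+L-labelled libraries. Long and short genes thus moved apart between groups as well as between replicates, and values adjusted for length are given wherever they end a call or turn a direction. The part of this difference in the results below was not tested.

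Of the 35 genes, 33 were tested in at least 1 comparison. INPP5D and DEPTOR passed the filter on low counts only in comparisons that hold a group where they are high. Their fold changes there are therefore given as description, without p-values. The counts of members called below include both genes wherever they were tested, which raises those counts. PIK3R6, a regulatory subunit of the PI3K gamma complex, had 0 counts in all 12 libraries, and PIK3R5, its other regulatory subunit, had 3 counts in 1 K562+L library, 2 in 1 labelled K562/IM+L library and 0 in the rest. In K562+L against K562, 17 of 31 members tested differed at an adjusted p under 0.05 by edgeR's quasi-likelihood test, where 37.3% of all genes did. Of these, 11 were higher and 6 lower, against 18.2% and 19.0% of all genes, and 4 members (12.9%) were differentially expressed, that is, changed by over 1 on the log2 scale as well, 3 up and 1 down, against 6.39% of genes (2.38% up and 4.01% down). Without K562+L replicate 1 or 3, 11 members passed, and the genes passing fell from 4821 to 2971 and 3058. In K562/IM against K562, 19 of 32 members passed (57.1% of genes), 12 higher and 7 lower (30.1% and 27.1% of genes), and 5 members (15.6%) were differentially expressed, 4 up and 1 down (19.1% of genes, 13.9% up and 5.29% down). In the K562/IM+L-labelled libraries against K562/IM, 22 of 33 members passed (66.8% of genes), 13 higher and 9 lower (33.2% and 33.6% of genes), and 9 (27.3%) were differentially expressed, 5 up and 4 down (28.5% of genes, 14.7% up and 13.8% down). All 3 libraries of one group lay above or below those of the other for 18, 22 and 24 members in these comparisons, where 51.5%, 66.6% and 73.4% of genes did. The medians of the members were 0.16, 0.14 and 0.01 on the log2 scale in these 3 comparisons, with 0.0, 0.04 and -0.01 over all genes tested. Outside K562+L, the members' shares of passing and differentially expressed genes were close to those of all genes. The split between higher and lower among members that passed moved with an adjustment for gene length. With length-adjusted offsets, 9 members were higher and 7 lower in K562+L (56.2% higher in place of 64.7%), 8 higher and 12 lower in K562/IM (40.0% in place of 63.2%), and 17 higher and 6 lower in the K562/IM+L-labelled libraries (73.9% in place of 59.1%). Among all genes that passed, the share higher was 51.1% in place of 48.9%, 49.3% in place of 52.6% and 49.9% in place of 49.7%.

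**Figure D1:**
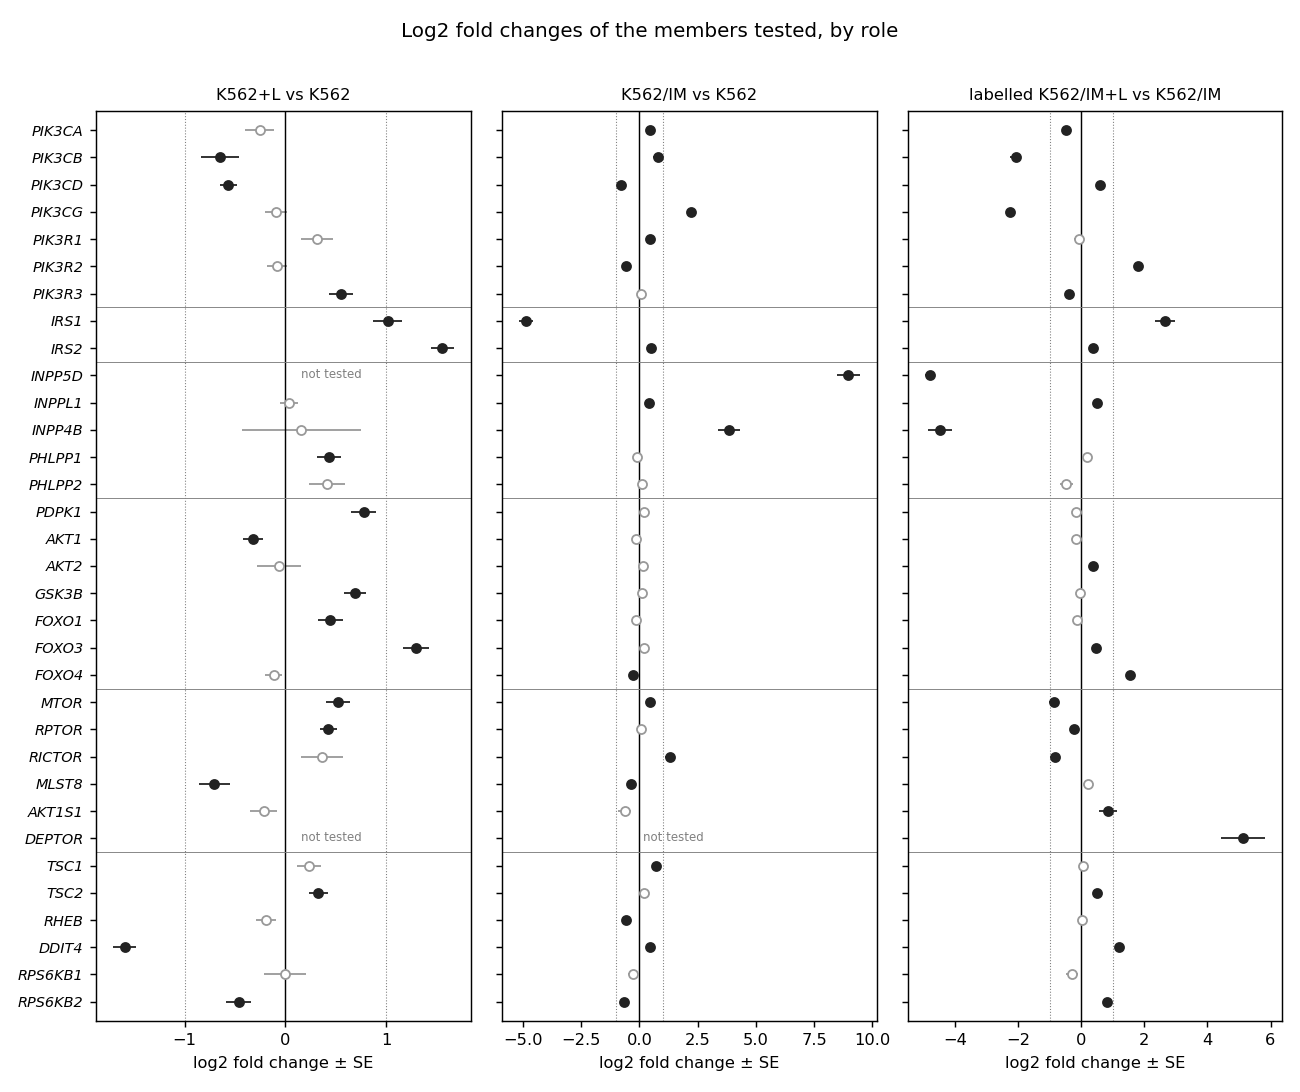
Log2 fold change with standard error (x axis, linear, a separate scale in each panel) of the 33 members tested, grouped by role between the horizontal lines, in 3 comparisons. Filled points passed at an adjusted p under 0.05, open points did not, and dotted lines mark a change of 1 on the log2 scale, which 4, 5 and 9 members passed in the panels from left to right.

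In K562/IM, 3 of the 4 PI3K catalytic subunits were higher than in K562 and PIK3CD was lower. In the K562/IM+L-labelled libraries those 3 were lower than in K562/IM and PIK3CD was higher, and both comparisons share the K562/IM libraries. PIK3CG encodes p110 gamma, the class IB subunit that answers to G protein-coupled receptors and is found mainly in blood cells (chr7:106865278-106907145, plus strand, GRCh38). It was at 9.09, 9.56 and 9.47 CPM in K562 and 8.83, 8.21 and 9.28 CPM in K562+L, and at 44.4, 42.5 and 44.9 CPM in K562/IM. The K562/IM+L-labelled libraries held 8.33, 8.68 and 10.0 CPM. All 3 K562/IM libraries therefore stood far above the other 9, which overlapped with each other. PIK3CG was higher in K562/IM than in K562 (log2 fold change 2.23, standard error 0.08, adjusted p = 8.9e-07) and lower in the labelled group than in K562/IM (log2 fold change -2.26, standard error 0.10, adjusted p = 1.7e-06). Since these are bulk samples, fewer cells with a transcript and less RNA per cell cannot be told apart.

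PIK3CB, the p110 beta subunit (chr3:138652699-138834938, minus strand), was at 90.8, 54.4 and 69.5 CPM in K562 and 39.7, 52 and 45.1 CPM in K562+L. It was at 108, 151 and 110.5 CPM in K562/IM and 22.9, 33.2 and 30.0 CPM in the K562/IM+L-labelled libraries. No group overlapped with another, and the order from highest to lowest was K562/IM, K562, K562+L and the labelled group. The gene was lower in K562+L than in K562 (log2 fold change -0.65, standard error 0.19, adjusted p = 0.028), higher in K562/IM (0.78, adjusted p = 0.012) and lower in the labelled group than in K562/IM (log2 fold change -2.08, standard error 0.18, adjusted p = 4.7e-05). PIK3CD, the p110 delta subunit of leukocytes, fell from 58.4 ± 0.628 CPM (mean ± SD, n = 3, as in all means that follow) in K562 to 39.5 ± 2.81 CPM in K562+L (-0.57, adjusted p = 0.0027) and was lowest in K562/IM at 33.7 ± 0.878 CPM (-0.79, adjusted p = 5.5e-05). In the labelled group it stood at 50.3 ± 2.57 CPM, above K562/IM (0.60, adjusted p = 0.00023). PIK3CA, the widely expressed p110 alpha subunit, was at 48.3 ± 8.28 CPM in K562 and 66.2 ± 2.7 CPM in K562/IM, and its rise (0.45, adjusted p = 0.015) and its fall in the labelled group (-0.48, adjusted p = 0.0059) did not hold with length-adjusted offsets (0.10, adjusted p = 0.2, and -0.06, adjusted p = 0.39). In K562+L the values of PIK3CA were 40.5 ± 4.79 CPM (-0.26, adjusted p = 0.2), and with length-adjusted offsets the gene passed as lower (-0.56, adjusted p = 0.0017). Exons of PIK3CA share 35.8% of their bases with KCNMB3 on the opposite strand, and the sources used here do not say whether counting used the strand. The K562+L call of PIK3CB was lost without K562+L replicates 1 or 3 (-0.64 to -0.56), and the K562/IM call of PIK3CA without K562 replicate 2 or K562/IM replicate 2 (0.43 to 0.44).

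The make-up of the catalytic subunits, taken as shares of their summed CPM per kilobase of transcript, shifted with these changes. PIK3CB and PIK3CD made up 39.4% ± 5.55 and 37.3% ± 4.3 of the sum in K562. In K562+L the shares were 36% ± 3.59 and 35.6% ± 3.72, overlapping with K562. PIK3CA held 20.8% ± 2.23 there in place of 17.5% ± 1.95, and PIK3CG 7.65% ± 0.628 in place of 5.81% ± 0.815, both without overlap. In K562/IM, PIK3CB and PIK3CD held 48.4% ± 4.79 and 15.3% ± 1.62, and PIK3CG made up 19.3% ± 2.22 in place of the 5.81% ± 0.815 of K562. In the K562/IM+L-labelled libraries, PIK3CD led with 45.4% ± 1.81 and PIK3CB held 22.7% ± 2.87. K562/IM was thus the group with the largest p110 beta and gamma shares and the smallest p110 delta share.

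**Figure D2:**
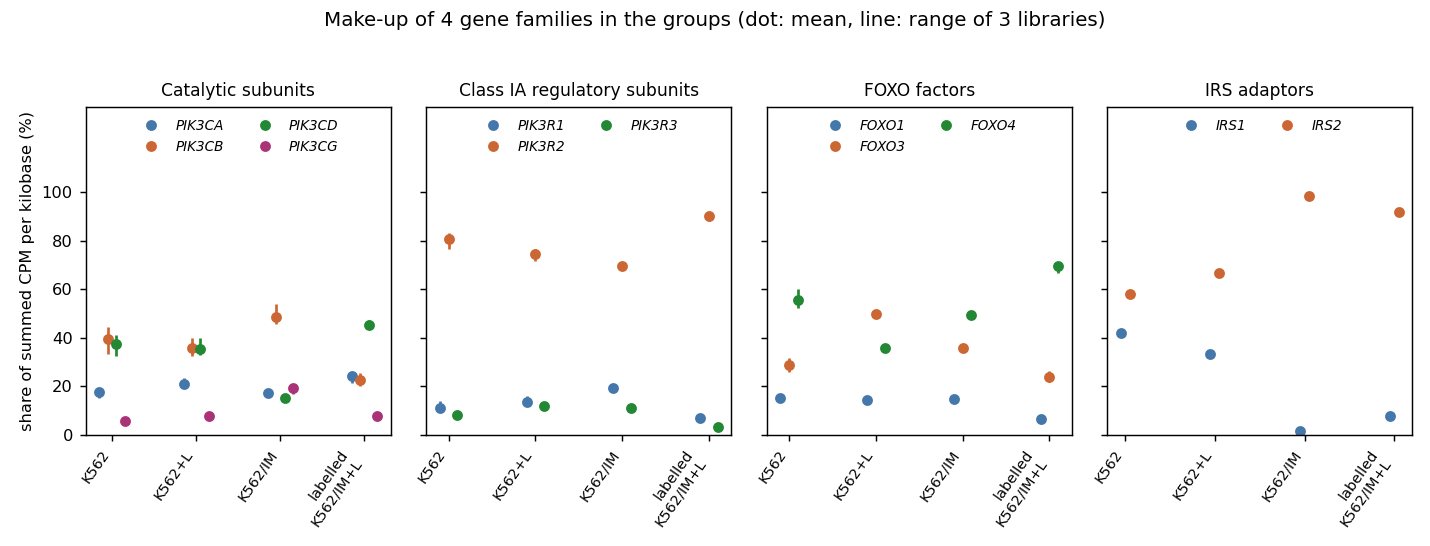
Share of each gene in the summed CPM per kilobase of its family (y axis, percent, linear) in the 4 groups (x axis), for the PI3K catalytic subunits, the class IA regulatory subunits, the FOXO factors and the IRS adaptors. Dots are means and lines the range of 3 libraries, and IRS1 falls from 41.9% of the IRS sum in K562 to 1.71% in K562/IM.

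Among the class IA regulatory subunits, which hold the catalytic subunit stable and dock it on phosphorylated receptors, PIK3R2 (p85 beta) carried most transcripts in every group. PIK3R2 (chr19:18153118-18170540, plus strand) was at 96.7, 112 and 104 CPM in K562 and 103, 103 and 89.1 CPM in K562+L. It was at 71.6, 72.7 and 67.9 CPM in K562/IM and 237, 249.9 and 236 CPM in the K562/IM+L-labelled libraries. The lowest and the highest group did not overlap with any other, while K562 and K562+L overlapped with each other. The gene was lower in K562/IM than in K562 (log2 fold change -0.56, standard error 0.08, adjusted p = 0.00069) and higher in the labelled group than in K562/IM (log2 fold change 1.79, standard error 0.07, adjusted p = 8.6e-07). Its share of the class IA regulatory sum was 69.6% ± 0.447 in K562/IM and 90.1% ± 1.75 in the labelled group. A read-through gene of the same strand, AC007192.1, covers 87.2% of the exon bases of PIK3R2 in GENCODE 29, so that the counts of these genes may be mixed. PIK3R3 (p55 gamma, with 17.4% of its exon bases under AL358075.4 of the same strand) was highest in K562+L, at 21.6 ± 1.14 CPM against 14.7 ± 1.87 CPM in K562 (0.55, adjusted p = 0.0089), and lowest in the labelled group at 11.6 ± 0.487 CPM. Its fall there against K562/IM (-0.40, adjusted p = 0.008) was lost with length-adjusted offsets (-0.15, adjusted p = 0.21). PIK3R1 (p85 alpha) was at 25 ± 5.61 CPM in K562 and 34.2 ± 0.982 CPM in K562/IM (0.45, adjusted p = 0.033), a rise that did not pass with length-adjusted offsets (0.19, adjusted p = 0.11) or without K562 replicates 2 or 3 or K562/IM replicates 1, 2 or 3 (0.32 to 0.48). Of the 7 lipid kinase genes tested, 1 was higher and 2 lower in K562+L, 4 higher and 2 lower in K562/IM, and 2 higher and 4 lower in the labelled group against K562/IM, where 18.2% and 19.0%, 30.1% and 27.1%, and 33.2% and 33.6% of all genes were.

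IRS1 and IRS2, the adaptors that link the insulin and IGF-1 receptors to PI3K, both rose with lycorine in K562. IRS2 (chr13:109752698-109786568, minus strand) was at 12.9, 10.8 and 10.0 CPM in K562 and 34, 32.1 and 32.9 CPM in K562+L, a rise to 2.94-fold (log2 fold change 1.56, standard error 0.12, adjusted p = 0.00017). IRS1 (chr2:226731317-226799759, minus strand) was at 11.8, 9.0 and 8.38 CPM in K562 and 20.6, 18.4 and 19.9 CPM in K562+L (log2 fold change 1.01, standard error 0.14, adjusted p = 0.0019). Neither gene overlapped between these groups. In K562/IM, IRS1 was down to 0.383, 0.416 and 0.196 CPM (log2 fold change -4.88, standard error 0.30, adjusted p = 1.1e-05), while IRS2 was at 15.8, 16.8 and 14.5 CPM, above K562 (0.48, adjusted p = 0.01). In the K562/IM+L-labelled libraries, IRS1 was at 2.18, 1.86 and 2.12 CPM and IRS2 at 18.4, 19.7 and 21.5 CPM. Both were above K562/IM there (IRS1 2.66, adjusted p = 0.00028, IRS2 0.36, adjusted p = 0.014), and IRS1 was still below K562 (-2.26, adjusted p = 6.4e-05). IRS1 made up 41.9% ± 1.21 of the summed IRS level per kilobase in K562, 33.2% ± 0.712 in K562+L, 1.71% ± 0.518 in K562/IM and 8.0% ± 0.895 in the labelled group. The parental line thus carried both adaptors and the resistant line almost only IRS2. With length-adjusted offsets the rise of IRS1 in K562+L was 0.70 (adjusted p = 0.00087), under the fold threshold, the rise of IRS2 in K562/IM did not pass (0.16, adjusted p = 0.16), and IRS2 in the labelled group was 0.76 against K562/IM. The IRS2 call in the labelled group was lost without K562/IM replicate 3 (0.31).

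The promoters of these adaptors are shown because both genes rose in K562+L and parted in K562/IM. Each sequence is the 250 bases before the start of the gene in RefSeq (GRCh38.p14), written 5′ to 3′ on the strand of the gene, at chr2:226799821-226800070 (minus strand) for IRS1 and chr13:109786584-109786833 (minus strand) for IRS2. Capitals mark the GC box GGGCGG and the letters CCAAT on either strand.
IRS1: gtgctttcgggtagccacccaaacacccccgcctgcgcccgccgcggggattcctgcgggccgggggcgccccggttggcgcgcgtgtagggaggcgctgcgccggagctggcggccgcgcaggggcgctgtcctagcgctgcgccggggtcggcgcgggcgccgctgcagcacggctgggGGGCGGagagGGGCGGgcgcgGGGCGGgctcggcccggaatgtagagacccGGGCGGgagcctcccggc
IRS2: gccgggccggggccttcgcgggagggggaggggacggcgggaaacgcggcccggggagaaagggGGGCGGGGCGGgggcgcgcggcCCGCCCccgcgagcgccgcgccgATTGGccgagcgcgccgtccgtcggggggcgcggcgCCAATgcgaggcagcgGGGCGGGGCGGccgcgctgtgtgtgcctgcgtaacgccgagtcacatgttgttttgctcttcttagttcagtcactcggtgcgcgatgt
Both windows were rich in G and C (80.8% and 76.4%, where the median of all promoters was 58.0%). IRS1 held 4 GC boxes and no CCAAT, and IRS2 held 5 GC boxes, some of them overlapping, and 2 CCAAT motifs.

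INPP5D and INPP4B, inositol phosphatases that end PI3K signals, were far higher in K562/IM than in every other group. INPP5D encodes SHIP1, the 5-phosphatase of blood cells that removes a phosphate from PIP3 (chr2:233059967-233207903, plus strand). Its raw counts were 0, 2 and 13 in the K562 libraries and 0, 2 and 14 in K562+L, and it was too low to be tested between these groups. They were 2737, 2931 and 3370 in K562/IM and 79, 69 and 126 in the K562/IM+L-labelled libraries. In CPM, K562/IM stood at 31.6 ± 1.14 and the labelled group at 1.1 ± 0.208, with no overlap between either of them and the parental groups. Against K562, the fitted log2 fold change was 8.96 in K562/IM (standard error 0.49), a size that rests on the few counts of K562 and on the prior count of the fit and ran from 8.35 to 11.18 when 1 library was left out. The gene was lower in the labelled group than in K562/IM (log2 fold change -4.81, standard error 0.16) and higher than in K562 (4.08, or 6.32 without K562 replicate 3). INPP4B, the 4-phosphatase that acts on PI(3,4)P2 (chr4:142023160-142847432, minus strand), was lower in level. It was at 0.712, 0.524 and 0.129 CPM in K562 and 0.439, 0.415 and 0.67 CPM in K562+L. It was at 7.28, 5.73 and 6.52 CPM in K562/IM and 0.302, 0.448 and 0.128 CPM in the labelled group. The 3 K562/IM libraries were above the other 9, which overlapped (log2 fold change 3.83, standard error 0.48, adjusted p = 0.00037 against K562, and log2 fold change -4.48, standard error 0.39, adjusted p = 4.6e-05 for the labelled group against K562/IM).

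INPPL1 (SHIP2), the widely expressed relative of SHIP1, was the most abundant phosphatase of the 5 per kilobase. It was at 138, 144 and 149 CPM in K562 and 155, 151 and 136 CPM in K562+L. It was at 192, 175 and 202 CPM in K562/IM and 256, 262 and 266 CPM in the K562/IM+L-labelled libraries. K562 and K562+L overlapped, K562/IM stood above them (0.40, adjusted p = 0.0032 against K562, or 0.24 with length-adjusted offsets), and the labelled group stood above K562/IM (0.48, adjusted p = 0.0009). INPPL1 took 99.8% ± 0.0649 of the summed level per kilobase of the 3 inositol phosphatases in K562, and 85.6% ± 0.707 in K562/IM, where INPP5D took 12.8% ± 0.657. PHLPP1 and PHLPP2 remove the phosphate from the hydrophobic motif of AKT. PHLPP1 was at 21.2, 17.6 and 19.1 CPM in K562 and 26.7, 22.9 and 28.8 CPM in K562+L, higher without overlap (0.44, adjusted p = 0.024). It was at 18.2, 16.5 and 19.3 CPM in K562/IM and 20.1, 19 and 21 CPM in the labelled group, and did not pass in either comparison. With length-adjusted offsets PHLPP1 passed as lower in K562/IM (-0.36, adjusted p = 0.012) and as higher in the labelled group against K562/IM (0.48, adjusted p = 0.0015). The rise in K562+L was lost with length-adjusted offsets (0.23, adjusted p = 0.09) and without K562 replicates 2 or 3 or K562+L replicates 1 or 3 (0.36 to 0.43). PHLPP2 ran from 18.1 ± 5.77 CPM in the labelled group to 31.6 ± 3.53 CPM in K562+L and passed in none of the 4 pairwise comparisons.

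The promoter of INPP5D is shown for the size of its difference between the lines (chr2:233060092-233060341, plus strand, 250 bases before the RefSeq start, GRCh38.p14, 5′ to 3′).
INPP5D: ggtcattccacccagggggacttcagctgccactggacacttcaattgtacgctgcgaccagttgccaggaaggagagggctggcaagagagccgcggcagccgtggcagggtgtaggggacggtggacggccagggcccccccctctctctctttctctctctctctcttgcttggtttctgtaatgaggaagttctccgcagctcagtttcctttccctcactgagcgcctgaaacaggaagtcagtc
The window held neither a GC box nor CCAAT, so that no letter is in capitals, and 59.2% of its bases were G or C.

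**Figure D3:**
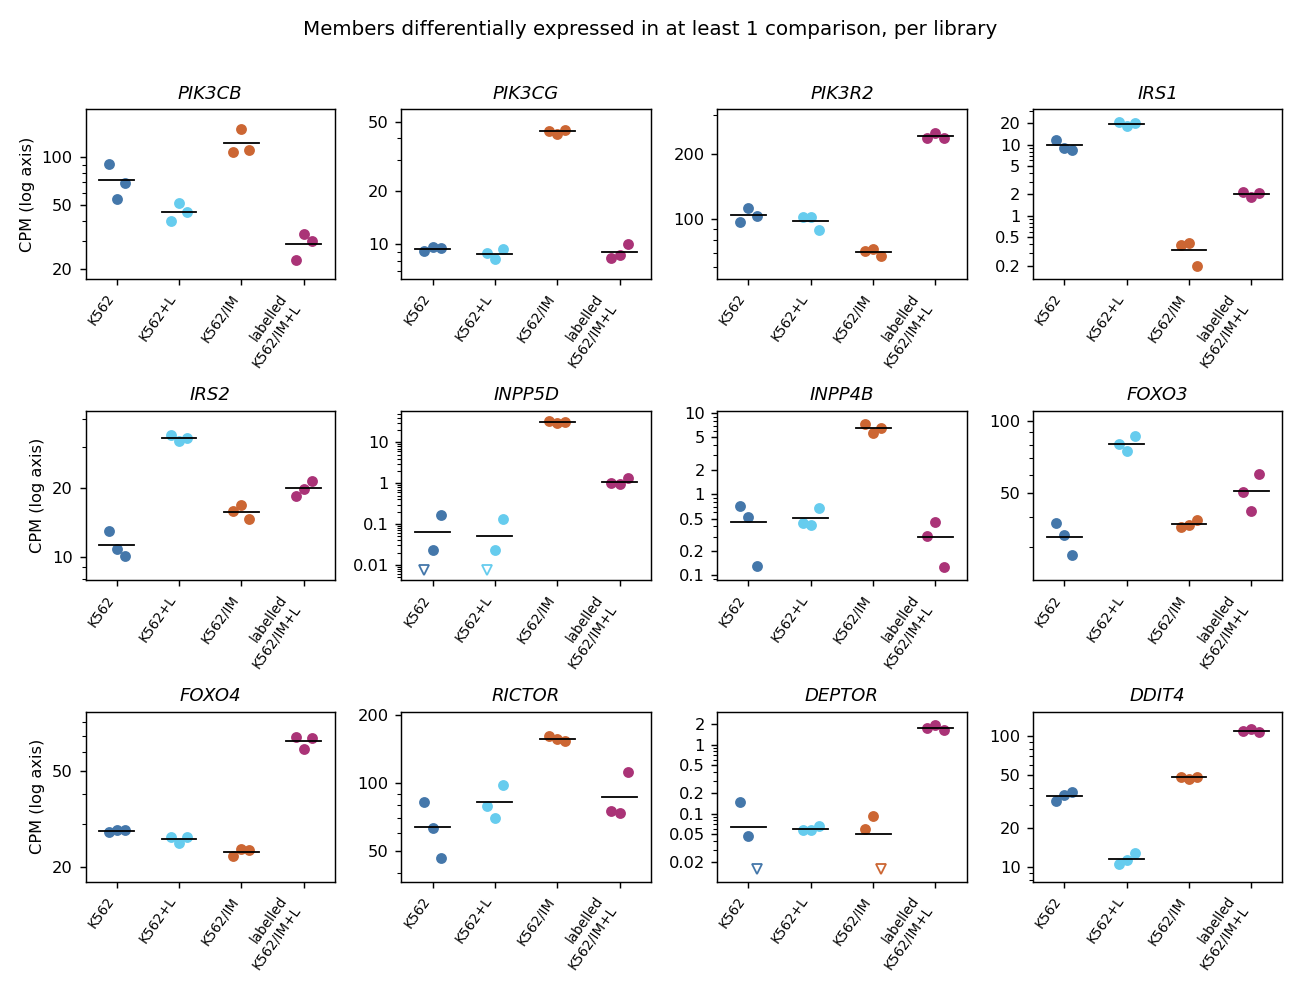
Level in CPM (y axis, log scale, its own range in each panel) of the 12 members that were differentially expressed in at least 1 comparison, in the 4 groups (x axis). Dots are single libraries, bars are means of 3, and open triangles mark libraries with 0 counts, drawn below the lowest value because a log axis has no 0, and PIK3CG, INPP5D, INPP4B and RICTOR stand highest in K562/IM, IRS1, IRS2 and FOXO3 in K562+L, and PIK3R2, FOXO4, DEPTOR and DDIT4 in the K562/IM+L-labelled libraries.

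AKT1 and AKT2, the AKT kinases among the 35 genes, changed by less than 1 on the log2 scale in every comparison. AKT1 was at 200.2, 223 and 228 CPM in K562 and 189, 173 and 159.7 CPM in K562+L, lower without overlap (log2 fold change -0.32, standard error 0.10, adjusted p = 0.031). It was at 193, 189.8 and 199.7 CPM in K562/IM and 173, 178 and 159.7 CPM in the K562/IM+L-labelled libraries, and its values there did not pass against K562/IM (-0.17, adjusted p = 0.062). AKT2 was at 100, 109.8 and 144 CPM in K562 and 136, 125 and 78.3 CPM in K562+L. It was at 143, 110.5 and 140.5 CPM in K562/IM and 176, 182 and 145 CPM in the labelled group. The first 3 groups of AKT2 overlapped, and the last stood above them (against K562/IM, 0.37, adjusted p = 0.036, or 0.61 with length-adjusted offsets). Per kilobase, AKT1 made up 71.5% ± 2.89 of the sum of both in K562 and 58% ± 1.66 in the labelled group. The AKT1 call in K562+L was lost without K562 replicates 2 or 3 or K562+L replicates 2 or 3 (-0.32 to -0.26), and the AKT2 call against K562/IM without K562/IM replicates 2 or 3 or K562/IM+L replicates 1 or 2 (0.25 to 0.42) and with all 12 libraries in one fit (0.35, adjusted p = 0.15).

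PDPK1, the kinase that phosphorylates the activation loop of AKT, and GSK3B, which AKT inhibits, rose together in K562+L. PDPK1 went from 65.3 ± 8.37 to 112 ± 11.8 CPM (log2 fold change 0.78, standard error 0.12, adjusted p = 0.0031) and GSK3B from 38.2 ± 5.17 to 61.7 ± 0.75 CPM (log2 fold change 0.69, standard error 0.11, adjusted p = 0.0031). Neither gene overlapped between these groups. In K562/IM and in the labelled group both stayed between 40.0 and 41.5 CPM for GSK3B and between 66.5 and 75.2 CPM for PDPK1 on average, and passed in neither comparison. With length-adjusted offsets the rise of GSK3B in K562+L was 0.44 (adjusted p = 0.0023), and the gene passed as lower in K562/IM (-0.19, adjusted p = 0.026) and as higher in the labelled group (0.34, adjusted p = 0.0012), in place of 0.12 and -0.03. PDPK1 has a near copy, PDPK2P, and 16.8% of its exon bases lie under an antisense gene, so that part of its counts is uncertain.

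The FOXO factors, which AKT keeps out of the nucleus, differed in pattern. FOXO3 (chr6:108559835-108684774, plus strand) was at 37.7, 33.5 and 27.6 CPM in K562 and 80.1, 75.2 and 87.2 CPM in K562+L, a 2.45-fold rise without overlap (log2 fold change 1.30, standard error 0.13, adjusted p = 0.00049). It was at 36.1, 36.9 and 38.7 CPM in K562/IM, overlapping with K562, and 50.6, 42.3 and 60.2 CPM in the K562/IM+L-labelled libraries (0.48, adjusted p = 0.013 against K562/IM, or 0.82 with length-adjusted offsets). FOXO1 rose in K562+L from 13.5 ± 1.91 to 18.4 ± 1.08 CPM (0.45, adjusted p = 0.026, or 0.28 with length-adjusted offsets) and was at 12.1 ± 0.15 CPM in K562/IM and 10.8 ± 0.995 CPM in the labelled group. Unlike FOXO3, FOXO1 did not pass in the labelled group against K562/IM (-0.14, adjusted p = 0.27). With length-adjusted offsets FOXO1 passed as lower in K562/IM than in K562 (-0.38, adjusted p = 0.009). FOXO4 (chrX:71096197-71103535, plus strand) did not rise in K562+L. It was at 27.9, 28.4 and 28.5 CPM in K562 and 26.6, 25.1 and 26.6 CPM in K562+L. It was at 22.1, 23.6 and 23.6 CPM in K562/IM and 69.1, 61.5 and 68.5 CPM in the labelled group. The labelled group stood far above all others (log2 fold change 1.55, standard error 0.08, adjusted p = 3.5e-06 against K562/IM, and 1.21, adjusted p = 3.5e-05 against K562). FOXO3 made up 29% ± 2.88 of the summed FOXO level per kilobase in K562 and 49.7% ± 1.04 in K562+L, and FOXO4 made up 55.7% ± 3.96 and 69.6% ± 2.37 in K562 and the labelled group. Processed pseudogenes of FOXO1 and FOXO3 exist, so that some of their counts are uncertain. The FOXO1 rise did not pass without K562+L replicates 1 or 3 (0.40 to 0.45), and the lower FOXO4 of K562/IM (-0.29, adjusted p = 0.011) did not pass without K562/IM replicate 1 (-0.26).

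MTOR and RICTOR were higher in K562/IM than in K562 and lower in the K562/IM+L-labelled libraries than in K562/IM. MTOR, the kinase of both complexes, was at 201, 169.8 and 164 CPM in K562 and 270.5, 220.5 and 276 CPM in K562+L (log2 fold change 0.52, standard error 0.12, adjusted p = 0.013). It was at 245, 217 and 263 CPM in K562/IM (0.44, adjusted p = 0.009) and 117, 118 and 155 CPM in the labelled group (log2 fold change -0.87, standard error 0.14, adjusted p = 0.00089). K562 lay between K562+L and K562/IM, which overlapped with each other, and the labelled group, which stood below all others. RICTOR, the defining subunit of mTORC2, the complex that phosphorylates AKT (chr5:38937919-39074408, minus strand), was at 82.2, 63.2 and 47 CPM in K562 and 79, 70.1 and 98.1 CPM in K562+L. It was at 162, 157 and 153 CPM in K562/IM and 75.2, 74 and 112 CPM in the labelled group. The K562/IM libraries were above the other 9, which overlapped (log2 fold change 1.29, standard error 0.18, adjusted p = 0.00065 against K562, and log2 fold change -0.83, standard error 0.17, adjusted p = 0.0031 for the labelled group against K562/IM). RPTOR, the scaffold of mTORC1, was highest in K562+L at 91.7 ± 4.05 CPM against 68.2 ± 2.89 CPM in K562 (0.43, adjusted p = 0.0067) and was at 70.8 ± 1.32 CPM in K562/IM and 59.7 ± 2.6 CPM in the labelled group (-0.22, adjusted p = 0.02 against K562/IM). These 3 transcripts are long, and length-adjusted offsets made their values smaller. MTOR in K562+L was then 0.22 (adjusted p = 0.037), RPTOR in K562+L 0.22 (adjusted p = 0.044), MTOR in K562/IM 0.09 (adjusted p = 0.31) and RICTOR in K562/IM 0.95 (adjusted p = 9.3e-05), under the fold threshold. In the labelled group MTOR was -0.47, RICTOR -0.41 (adjusted p = 0.00052 and 0.0015) and RPTOR 0.09 with the direction turned (adjusted p = 0.29). The K562+L call of MTOR was lost without K562 replicate 2 or K562+L replicate 1 (0.48 to 0.49), and the RPTOR call in the labelled group without K562/IM replicates 1 or 3 or K562/IM+L replicate 1 (-0.22 to -0.19) and with upper-quartile normalization (-0.17, adjusted p = 0.054).

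The short or inhibitory partners of mTOR moved otherwise. MLST8, a subunit of both complexes, was at 64, 83.5 and 90.8 CPM in K562 and 52.8, 52 and 41.5 CPM in K562+L, lower without overlap (log2 fold change -0.71, standard error 0.15, adjusted p = 0.0096). It was at 62.1, 60.6 and 60.4 CPM in K562/IM (-0.38, adjusted p = 0.032) and 72.4, 78.8 and 59.8 CPM in the K562/IM+L-labelled libraries, which overlapped with each other. AKT1S1 (PRAS40), an mTORC1 inhibitor that AKT releases, was at 38.8, 36.3 and 17.1 CPM in K562/IM, where replicate 3 lay apart, and at 54.8 ± 6.11 CPM in the labelled group (0.86, adjusted p = 0.028). It was at 47.9 ± 7.6 CPM in K562 and 41.2 ± 3.69 CPM in K562+L. DEPTOR, an inhibitor of both complexes, had raw counts of 12, 4 and 0 in K562, 5, 5 and 7 in K562+L and 5, 9 and 0 in K562/IM. In the labelled group its counts were 138, 139 and 151, or 1.76 ± 0.172 CPM, above all others (log2 fold change 5.13, standard error 0.70 against K562/IM, with the fitted size resting on few counts). The MLST8 call in K562/IM was lost with length-adjusted offsets (-0.23, adjusted p = 0.06), without K562 replicates 2 or 3 or K562/IM replicates 1, 2 or 3 (-0.39 to -0.29), and with upper-quartile normalization (-0.33, adjusted p = 0.056). The AKT1S1 call was lost without K562/IM+L replicates 1 or 2 (0.79 to 0.84), and without K562/IM replicate 3 the value was 0.57.

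DDIT4 (REDD1), a stress-induced inhibitor of mTORC1 that acts through the TSC complex, fell with lycorine in K562 and rose in the resistant line, as labelled. It lies at chr10:72273920-72276036 on the plus strand. It was at 31.8, 35.8 and 37.2 CPM in K562 and 10.5, 11.3 and 12.9 CPM in K562+L, a fall to less than any K562 value (log2 fold change -1.60, standard error 0.11, adjusted p = 0.00014). It was at 48.8, 47.1 and 48.9 CPM in K562/IM and 109.9, 113 and 107 CPM in the K562/IM+L-labelled libraries. None of the 4 groups overlapped. DDIT4 was higher in K562/IM than in K562 (0.47, adjusted p = 0.002) and higher again in the labelled group (log2 fold change 1.21, standard error 0.06, adjusted p = 3.7e-06, or 0.97 with length-adjusted offsets, under the fold threshold). The antisense gene DDIT4-AS1 covers 41.2% of its exon bases. The promoter is shown because of this opposite change (chr10:72273674-72273923, plus strand, GRCh38.p14, 5′ to 3′, capitals as above).
DDIT4: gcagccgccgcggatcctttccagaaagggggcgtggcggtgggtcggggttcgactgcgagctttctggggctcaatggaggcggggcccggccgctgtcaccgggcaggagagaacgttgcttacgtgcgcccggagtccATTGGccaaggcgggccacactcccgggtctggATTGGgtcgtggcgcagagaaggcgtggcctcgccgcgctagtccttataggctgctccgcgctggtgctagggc
It held 2 CCAAT motifs, both on the opposite strand as ATTGG, and no GC box.

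The other controllers of mTORC1 changed by less than 1 on the log2 scale. TSC1 and TSC2 form the complex that switches RHEB off. TSC2 was lowest in K562 at 79.4 ± 3.75 CPM, with 99.8 ± 8.01 CPM in K562+L (0.33, adjusted p = 0.026), 91.3 ± 8.3 CPM in K562/IM and 126 ± 2.2 CPM in the K562/IM+L-labelled libraries (0.49, adjusted p = 0.0015 against K562/IM, or 0.79 with length-adjusted offsets). TSC1 was at 39.1 ± 5.26 and 46 ± 3.24 CPM in K562 and K562+L and at 64.7 ± 1.88 and 65.9 ± 12.7 CPM in K562/IM and the labelled group (0.73, adjusted p = 0.0007 for K562/IM against K562, or 0.38 with length-adjusted offsets). With these offsets TSC1 passed as higher in the labelled group than in K562/IM (0.45, adjusted p = 0.0002, in place of 0.05). The mean levels of both TSC genes were lowest in the untreated parental line, where TSC1 overlapped with K562+L. RHEB, the GTPase that activates mTORC1, was at 121, 141 and 141 CPM in K562 and 116, 127 and 109.7 CPM in K562+L. It was at 86.1, 99.5 and 82.2 CPM in K562/IM (-0.59, adjusted p = 0.0018) and 94.1, 94.5 and 77.4 CPM in the labelled group. Its levels overlapped with and without lycorine in each line, and both groups of the resistant line, as labelled, stood below the parental ones. The K562+L call of TSC2 was lost with length-adjusted offsets (0.12, adjusted p = 0.39) and without K562 replicates 2 or 3 or K562+L replicates 1 or 3 (0.26 to 0.37). RHEB has processed pseudogenes.

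The S6 kinases carry the mTORC1 signal to the ribosome and the translation machinery. RPS6KB2 (S6K2) was at 84.7, 109.5 and 113 CPM in K562 and 79.4, 75.4 and 67.7 CPM in K562+L, lower without overlap (log2 fold change -0.46, standard error 0.13, adjusted p = 0.024). It was at 65.3, 66.9 and 62.5 CPM in K562/IM (-0.66, adjusted p = 0.0019) and 122, 123 and 94.8 CPM in the K562/IM+L-labelled libraries (log2 fold change 0.83, standard error 0.11, adjusted p = 0.00033 against K562/IM). RPS6KB1 (S6K1) spread widely between replicates, from 64.5 to 114 CPM in K562+L, and passed in neither line with lycorine (0.00, adjusted p = 0.99, and -0.29, adjusted p = 0.21). Its mean was 94 ± 14.4 CPM in K562, 76.5 ± 19.1 CPM in K562/IM and 61.6 ± 6.68 CPM in the labelled group, lower than in K562 (-0.63, adjusted p = 0.0057). The RPS6KB2 call in K562+L was -0.28 with length-adjusted offsets and was lost without K562 replicates 2 or 3 or K562+L replicates 1, 2 or 3 (-0.52 to -0.39).

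The K562/IM+L-labelled libraries were also set against K562. Here 19 of 33 members passed (56.0% of genes), 11 higher and 8 lower (28.2% and 27.8% of genes), 7 (21.2%) were differentially expressed (23.8% of genes), and 20 did not overlap between the groups (63.6% of genes). The 7 differentially expressed members were PIK3R2, INPP5D, FOXO4, DEPTOR and DDIT4, higher than in K562 (14.9% of genes, PIK3R2 1.19, adjusted p = 5.1e-05, DDIT4 1.63, adjusted p = 1.7e-05), and PIK3CB and IRS1, lower (8.91% of genes, PIK3CB -1.34, adjusted p = 0.0017). Of these, INPP5D and DEPTOR passed the filter only through the labelled group, where they are higher. PIK3CG and INPP4B, which K562/IM carried at the highest level, did not differ by the test from K562 in the labelled group (-0.08, adjusted p = 0.59, and -0.67, adjusted p = 0.47). With upper-quartile normalization the median of all genes in this comparison moved from 0.02 to 0.17, and the split of the members from 11 higher and 8 lower to 11 and 4 (73.3% higher in place of 57.9%, and 61.3% in place of 50.4% over all genes). PIK3CD, PIK3R3, AKT1 and MTOR, which passed as lower here, did not pass with that scaling. With length-adjusted offsets PIK3CD did not pass (-0.20, adjusted p = 0.06, in place of -0.24, adjusted p = 0.034). AKT2, which passed as higher here (0.48, adjusted p = 0.039), did not pass with these offsets either (0.52, adjusted p = 0.063).

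The change with lycorine differed between the parental and the resistant line, as labelled, for most members tested. An interaction term fitted across the 12 libraries tested this difference, and 24 of 33 members passed (61.7% of genes), 10 with a higher and 14 with a lower value in the resistant line (29.9% and 31.7% of genes). For 15 members the difference was also over 1 on the log2 scale (33.7% of genes), 8 above 0 and 7 below (17.5% and 16.3% of genes). INPP5D and DEPTOR are among these, although their change in K562 could not be tested. Over the 31 members tested with lycorine in both lines, 22 passed, 9 higher and 13 lower, and 13 were also over 1, where 64.9%, 31.5%, 33.5% and 34.4% of 12810 genes were. DDIT4 had the largest difference among members with over 10 CPM in every group (log2 fold change 2.78, standard error 0.12, adjusted p = 8.1e-09), falling in K562 and rising in the labelled group. PIK3CD, RPS6KB2 and MLST8 had the same signs, lower in K562+L and with log2 fold changes of 0.60, 0.83 and 0.23 in the labelled group (differences 1.14, 1.27 and 0.91, adjusted p = 1.8e-06, 7.2e-05 and 0.0018), of which MLST8 did not pass in the latter comparison. MTOR, RPTOR and PIK3R3 had the opposite signs, passing as higher in K562+L and as lower in the labelled group (differences -1.42, -0.67 and -0.98, adjusted p = 5.4e-05, 5e-05 and 0.00013). With length-adjusted offsets MTOR still passed as lower in the labelled group (-0.47, adjusted p = 0.00052). RPTOR (0.09, adjusted p = 0.29) and PIK3R3 (-0.15, adjusted p = 0.21) did not pass there. IRS1, IRS2 and FOXO3 passed as higher in both lines, IRS1 by more in the resistant line (difference 1.63, adjusted p = 0.00064), IRS2 and FOXO3 by less (differences -1.22, adjusted p = 2.3e-05, and -0.84, adjusted p = 0.0023). PIK3CB passed as lower in both, by more in the labelled group (-1.45, adjusted p = 0.00091). With length-adjusted offsets 13 differences were higher and 10 lower (56.5% higher in place of 41.7%, and over all genes 46.8% in place of 48.6%), and the difference of RPTOR did not pass (-0.18, adjusted p = 0.12).

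**Figure D4:**
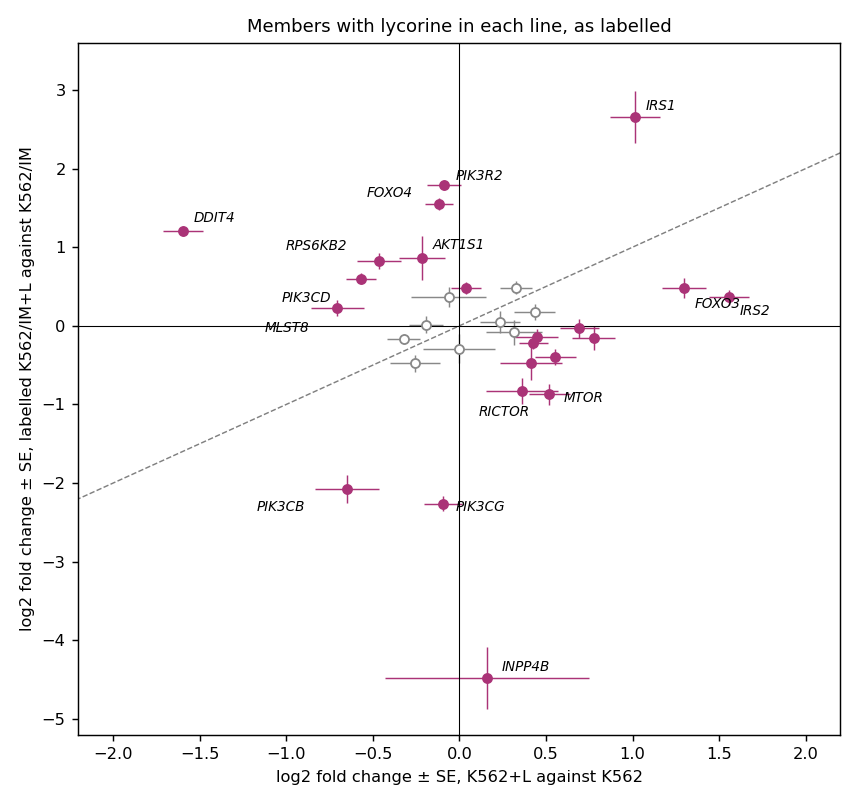
Log2 fold change with standard error of K562+L against K562 (x axis) and of the K562/IM+L-labelled libraries against K562/IM (y axis, its own scale) for the 31 members tested in both, which share no library. Filled points had a difference between the lines at an adjusted p under 0.05 and the dashed line marks equal effects, with DDIT4 at -1.60 and 1.21 and with IRS1, IRS2 and FOXO3 to the right at values above 0 on both axes.

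Read by group, 9 members had all 3 K562+L libraries above the other 9 libraries (27.3% of 33, against 12.2% of all genes). These were IRS1, IRS2, PIK3R3, FOXO1, FOXO3, GSK3B, PDPK1, PHLPP1 and RPTOR, which span the adaptors, the AKT kinase and targets, and mTORC1. Those with K562/IM on top were PIK3CA, PIK3CB, PIK3CG, INPP5D, INPP4B and RICTOR (18.2% of 33, against 16.1% of genes). The K562/IM+L-labelled libraries were on top for PIK3R2, INPPL1, AKT2, FOXO4, DEPTOR, TSC2 and DDIT4 (21.2%, against 20.4% of genes) and at the bottom for PIK3CB, PIK3R3, MTOR and RPTOR (12.1%, against 17.8%). INPP5D and DEPTOR, which passed the filter through the groups where they are high, are counted in these shares. K562/IM was at the bottom for PIK3CD, PIK3R2, IRS1, FOXO4 and RPS6KB2 (15.2%, against 10.7%), K562+L for MLST8 and DDIT4 (6.06%, against 10.4%), and K562 for IRS2 and TSC2 (6.06%, against 4.04%). K562 was on top for AKT1 and PIK3CD (6.06%, against 4.74%). The 9 members with K562+L on top all have long transcripts, of 5609 bases (PIK3R3) to 9705 bases (IRS1). Members not on top there, such as MTOR (8677 bases) and RICTOR (9543 bases), are long as well. The median of long relative to short genes in K562+L (0.11 to 0.36) lay above K562 (-0.42 to 0.07) and overlapped with K562/IM (0.23 to 0.31). The part of length in these 9 members was not tested.

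Averaged over the 12 libraries and per kilobase of transcript, the most abundant members were RHEB (51.8 CPM per kb), RPS6KB2 (51.2), AKT1 (48.2) and INPPL1 (39.2). MLST8, PIK3R2, DDIT4, AKT2 and MTOR followed at 23.2 to 34.7 CPM per kb. The PI3K catalytic subunits lay lower, from 3.3 for PIK3CG to 11.4 for PIK3CB. Apart from the PI3K gamma partners PIK3R5 and PIK3R6, the least abundant were DEPTOR (0.189), INPP4B (0.22), IRS1 (0.817) and INPP5D (1.55). PIK3CG was thus present without counts above 3 for either of its known regulatory partners.

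Of 31 members with a promoter in the RefSeq table, 22 held a GC box (GGGCGG, either strand) in the 250 bases before the start (71.0%, against 42.3% of 27305 promoters), and 12 held CCAAT (38.7%, against 33.0%). The FOXO motif GTAAACA was in PIK3CA only (3.23%, against 2.98%), the E-box CACGTG and the ATF4 composite TGATGCAA in TSC2 only (3.23% each, against 6.49% and 0.82%). The cAMP response element TGACGTCA and the GATA motif AGATAA were in 0 of the 31 windows (1.77% and 9.37% of all promoters). These are matches of letters in 1 window per gene. The 27305 promoters cover all genes of the RefSeq table and were not matched to the members for expression or for G and C content.

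Another 75 genes of the pathway came from lists of further PI3K subunits, adaptors, phosphatases, AKT regulators and the nutrient and output branches of mTORC1. In K562+L, 16 of 72 tested were higher and 19 lower, in K562/IM 22 and 17 of 73, and in the K562/IM+L-labelled libraries against K562/IM 22 and 20 of 73, with medians of -0.01, 0.05 and 0.07. Of all genes, 18.2% were higher and 19.0% lower in the first of these comparisons, 30.1% and 27.1% in the second, and 33.2% and 33.6% in the last. Of 17 FOXO target genes, IRS2 among them, 5 were higher and 5 lower in K562+L, 7 and 4 in K562/IM, and 8 and 3 in the labelled group against K562/IM, to be read against the same shares. In K562+L the largest changes in these lists were in INSR, the insulin receptor, at 1.03 ± 0.348 CPM against 0.234 ± 0.137 CPM (log2 fold change 2.13, standard error 0.49, adjusted p = 0.012), and in KLF6, a FOXO target, at 235.9 ± 94.3 CPM against 54.5 ± 10.6 CPM (2.11, adjusted p = 0.0022). SH2B3, the adaptor LNK that dampens cytokine receptors, fell from 77.5 ± 8.02 to 31.0 ± 3.25 CPM (-1.33, adjusted p = 0.00029). In K562/IM, SESN3, a FOXO target that restrains mTORC1, was at 54.0 ± 3.91 CPM against 0.522 ± 0.218 CPM in K562 (log2 fold change 6.68, standard error 0.27, adjusted p = 1.7e-06). PIK3AP1, an adaptor of PI3K in B cells, was at 15.9 ± 0.627 CPM against 1.77 ± 0.153 CPM (3.17, adjusted p = 1.2e-06), and PRR5L, a partner of mTORC2, at 1.31 ± 0.239 CPM against 0.0648 ± 0.0725 CPM (4.29, adjusted p = 0.0017). In the labelled group INSR was at 7.21 ± 0.774 CPM against 0.216 ± 0.0412 CPM in K562/IM (5.06, adjusted p = 1.5e-06) and SESN3 at 4.23 ± 1.04 CPM (-3.65, adjusted p = 3.4e-06). PRR5L was at 0.0168 ± 0.0291 CPM there (-6.17, adjusted p = 0.00036, a fitted size that rests on few counts), and PIK3AP1 stayed at 15.8 ± 3.20 CPM, above K562 (3.14, adjusted p = 2e-05). INSR and IRS1 were thus both higher in K562+L than in K562 and in the labelled group than in K562/IM.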

How the data were processed

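The authors deposited raw counts per gene symbol for 12 poly(A)-enriched libraries. The submitters' notes name hg38, FastQC, STAR, StringTie and DESeq2 without their settings, and whether counting used strand is not given in the sources used here. Of the counts from 1 to 25, 67.9% were a multiple of 4 or 1 above it, as are 52.0% of the whole numbers in that range, so dividing counts by 4 was tried as an alternative. Groups came from the labels, and replicates are not said to be separate cultures, so p-values measure only the spread between these libraries. Genes passing filterByExpr (minimum count 10) were normalized by TMM and tested with edgeR 4.0.16 (quasi-likelihood) in R 4.3.3, per comparison on 6 libraries or, for the difference between lines, on 12, with Benjamini-Hochberg adjustment over all genes tested. The thresholds were an adjusted p of 0.05 and an absolute log2 fold change of 1. DESeq2 1.42.0 was an alternative. The test was tried on simulated data, where 92 of 92 changes of 1 and 108 of 108 changes of 2 (log2) were recovered with 7 false calls among 12925 genes. The simulated counts had a small fixed dispersion, no variation shared between genes, and changes only in well-counted genes. In the real libraries a single axis held 37.7% of the variance within groups. Recovery with that spread or at low counts was therefore not measured. CPM used TMM over all 12 libraries. Transcript length was that of the longest GENCODE 29 transcript with an APPRIS tag (19029 of 19447 symbols matched), and length-adjusted offsets removed a trend with length in each library. Overlaps and positions are from GENCODE 29 and promoters from RefSeq. All 35 members are named, with every library given for those differentially expressed in a pairwise comparison and for the most abundant per kilobase in each role. Of the other lists, the 3 genes with the largest change were named in each comparison among those differentially expressed without overlap. The members and lists were chosen with earlier results of these data known. Lycorine (6 µM) and the 5 µM imatinib used to keep K562/IM are from the study's methods. Counting error is small beside replicate spread at 75093844 to 107344598 counts a library.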

Additional observations from a re-analysis of the deposited data

Results flagged for a closer look

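For 24 members the change with lycorine differed between the lines by the test of the difference itself (edgeR's quasi-likelihood test of the interaction, adjusted p under 0.05), where 61.7% of all genes did. Each value is the log2 fold change of the K562/IM+L-labelled libraries against K562/IM minus that of K562+L against K562. Among the lipid kinase subunits the differences were in PIK3CB (-1.45), PIK3CD (1.14), PIK3CG (-2.19), PIK3R2 (1.85) and PIK3R3 (-0.98), and among the adaptors in IRS1 (1.63) and IRS2 (-1.22). Among the phosphatases they were in INPP5D (-4.71), INPP4B (-4.65), INPPL1 (0.42) and PHLPP2 (-0.92). Among AKT's activating kinase and the targets of AKT they were in PDPK1 (-0.95), GSK3B (-0.75), FOXO1 (-0.61), FOXO3 (-0.84) and FOXO4 (1.64). Among the subunits of the mTOR complexes they were in MTOR (-1.42), RPTOR (-0.67), RICTOR (-1.21), MLST8 (0.91), AKT1S1 (1.05) and DEPTOR (5.20), and among the genes that control mTORC1 or act below it in DDIT4 (2.78) and RPS6KB2 (1.27). The difference of INPP5D was lost without K562+L replicate 3 (-2.55), and that of DEPTOR without K562 replicate 1 (3.84), both genes with 14 counts or fewer in every library of 2 or more groups. Neither could be tested in K562+L against K562, so their values subtract a change that was not measured, and the other 22 are of 31 members tested with lycorine in both lines. With length-adjusted offsets PHLPP2, GSK3B, FOXO1 and RPTOR did not pass. These differences rest on the label of the group K562/IM+L. With 3 libraries a group, no search for single outlying libraries was made.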

How the results depend on the processing

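The members and counts below are those passing an adjusted p under 0.05 by edgeR's quasi-likelihood test unless stated. With DESeq2 in place of edgeR, 159 of 162 member results kept their direction and side of the threshold and 3 came to pass, and its size factors in edgeR changed none of the 162. Requiring a change over 1 on the log2 scale as well left 4, 5, 9 and 7 members and 826, 2566, 3917 and 3162 genes in the pairwise comparisons (K562+L and K562/IM against K562, the K562/IM+L-labelled libraries against K562/IM and against K562), and an adjusted p under 0.01 left 10 members and 2268 genes in K562+L. Leaving out 1 library gave 11 to 23, 16 to 23, 19 to 28 and 15 to 19 members and 2871 to 5823, 6316 to 8834, 8101 to 10181 and 6167 to 7441 genes in the same order, and 23 to 26 members and 8043 to 8906 genes for the difference between lines, and of 1170 single member results 66 lost their call and 25 turned in direction. The replicate numbers did not pair the samples (correlation of same-numbered deviations in K562+L and K562 of -0.11, 0.04 and -0.34, and not every sample correlated best with its own number), and the replicate block gave 12, 19, 23 and 13 members, 24 for the difference between lines, and 3126 in place of 4821 genes in K562+L. The block ended the calls of PIK3CB, AKT1, FOXO1, TSC2 and RPS6KB2 in K562+L (adjusted p = 0.066, 0.1, 0.07, 0.1 and 0.069) and of PIK3CD, PIK3R3, AKT1, AKT2, FOXO3 and MTOR in the labelled libraries against K562 (adjusted p = 0.14, 0.1, 0.069, 0.11, 0.05 and 0.068). Length-adjusted offsets and a covariate for the main axis of variation between replicates were chosen after seeing the data. With the former, 112 of 162 member results kept their direction and side of the threshold, 15 lost their call, 11 came to pass and 24 turned, in K562+L against K562 for INPPL1 (-0.077), INPP4B (-0.094) and TSC1 (-0.061), in K562/IM against K562 for PIK3R3 (-0.14), PHLPP2 (-0.20), PDPK1 (-0.086), AKT2 (-0.058), GSK3B (-0.19), FOXO3 (-0.11), RPTOR (-0.21) and TSC2 (-0.061), in the K562/IM+L-labelled libraries against K562/IM for PIK3R1 (0.24), PDPK1 (0.18), GSK3B (0.34), FOXO1 (0.12), RPTOR (0.085) and RHEB (-0.16), in the labelled libraries against K562 for PIK3CA (0.022), in the difference between lines for PIK3CA (0.45), PIK3R1 (0.095), PHLPP1 (0.21), TSC1 (0.46), RHEB (-0.13) and RPS6KB1 (0.045). Results that turned were counted apart from calls lost or gained, whatever their adjusted p. Some of them also came to pass. These were GSK3B and RPTOR in K562/IM (adjusted p = 0.026 and 0.023) and PIK3R1 and GSK3B in the labelled libraries against K562/IM (0.047 and 0.0012). PIK3CA and TSC1 did so in the difference between lines (0.002 and 0.00038). RPTOR in the labelled libraries against K562/IM lost its call (adjusted p = 0.29). Directions also turned with upper-quartile normalization for INPPL1 (-0.007 in K562+L against K562), GSK3B (0.027 in the K562/IM+L-labelled libraries against K562/IM), PIK3CA (0.079 in the labelled libraries against K562) and PIK3CG (0.071 in the labelled libraries against K562), with the covariate for the axis between replicates for RPS6KB1 (0.005 in K562+L against K562) and PDPK1 (-0.010 in the labelled libraries against K562), with all 12 libraries in one fit for RHEB (-0.010 in the K562/IM+L-labelled libraries against K562/IM), with no low-count filter for PDPK1 (-0.003 in the labelled libraries against K562), with the replicate block for PDPK1 (-0.011 in the labelled libraries against K562), none of which passed in either setting. With 1 library left out, members near 0 turned, in K562+L against K562 INPPL1 (-0.002 to 0.091), INPP4B (-0.28 to 0.62), AKT2 (-0.22 to 0.15) and RPS6KB1 (-0.17 to 0.21), in K562/IM against K562 PIK3R3 (-0.036 to 0.13) and PHLPP2 (-0.055 to 0.27), in the K562/IM+L-labelled libraries against K562/IM PIK3R1 (-0.30 to 0.035), GSK3B (-0.17 to 0.043), TSC1 (-0.12 to 0.16) and RHEB (-0.043 to 0.10), in the labelled libraries against K562 PIK3CA (-0.19 to 0.058), PHLPP1 (-0.042 to 0.10), PDPK1 (-0.18 to 0.10) and GSK3B (-0.092 to 0.14). With upper-quartile normalization the median of all genes for the difference between lines moved from -0.02 to 0.11 and the split of the members stayed at 10 higher and 14 lower. The cause of these moves was not tested. Members at a few counts, INPP5D and DEPTOR outside the groups where they are high, INPP4B and the PI3K gamma partners, were limited by depth. Intervals over 3 libraries cover the spread of these libraries only.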
